A study of Mus musculus with 12 samples.

Results

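The genes described here carry glucose into myeloid cells and through glycolysis, lactate export, the pentose phosphate pathway and glycogen turnover, with a pair of genes of the response to low oxygen. The 37 genes were chosen by name for these roles, with earlier results of these data known. All 37 had a row in the deposited table of 23479 genes. They were followed in myeloid-derived suppressor cells, which build up in animals with tumours and restrain T cells. All mice were C57BL/6 and carried B16 tumours, a transplanted mouse melanoma, of more than 25 mm2, and the cells were sorted by flow cytometry from spleen at a stated purity above 99%. The 12 libraries of total RNA form 4 groups of 3. These are monocytic cells (M-MDSC) and polymorphonuclear cells (PMN-MDSC) of mice given cyclophosphamide and fludarabine, which empty the lymphoid compartment (lymphodepleted, LD), and the same populations of untreated tumour-bearing mice (Ctrl). LD spleens were taken 7 days after the drugs. The age and sex of the mice, the surface markers used to sort and the tumour size at collection are not given in the sources used here. The design names 3 mice per treatment, but no label ties a library to a mouse, so p-values measure the spread among the libraries only, and that spread may be technical.

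Glucose enters myeloid cells through carriers of the GLUT family and is trapped by hexokinases as glucose 6-phosphate, from which several routes lead on. Glycolysis yields ATP and pyruvate, which lactate dehydrogenase turns to lactate for export by monocarboxylate transporters. Pyruvate also enters the mitochondrion, where pyruvate dehydrogenase uses it unless pyruvate dehydrogenase kinases switch that enzyme off. The pentose phosphate pathway yields NADPH, which the neutrophil oxidase uses to make superoxide, and ribose for nucleotides, and glycogen synthesis stores the sugar for later. Neutrophils hold few mitochondria and live largely on glycolysis, and they keep glycogen that they can burn where glucose or oxygen is scarce. HIF-1, the transcription factor whose oxygen-sensitive subunit is encoded by Hif1a, binds a short element with the core ACGTG in the promoters of many glycolytic genes.

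The reads recovered per library numbered 8906045 to 16242926. Of the 37 genes, 36 had a mean normalized count of at least 10 and were tested, and the exception was Eno1, enolase 1, which held between 0 and 10 reads in each library. Markers fitted the labels: all 8 monocyte markers were higher in M-MDSC Ctrl and all 8 mature neutrophil markers in PMN-MDSC Ctrl (limma adjusted p under 0.05). Summed normalized counts of the mature neutrophil markers were 39004, 9530 and 16096 in M-MDSC LD replicates 1, 2 and 3, against 5824, 6295 and 6598 in M-MDSC Ctrl. M-MDSC LD replicate 1 stood apart, with 8133 normalized counts of the proliferation gene Mki67 against 2434 and 3201 in replicates 2 and 3 of its group. PMN-MDSC LD replicate 1 likewise held 6242 against 1261 and 2025, so the counts of members called are also given without both LD libraries numbered 1. B cell markers were low in all libraries, at 33, 62 and 31 summed normalized counts in M-MDSC LD and 51, 61 and 58 in M-MDSC Ctrl, and at 14, 7 and 4 in PMN-MDSC LD and 128, 63 and 53 in PMN-MDSC Ctrl. Markers of T cells, NK cells, red cells, platelets and melanoma summed to at most 150 in any library. In sorted cells measured in bulk, fewer cells of a type and less RNA per cell cannot be told apart.

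Several of these genes have close copies elsewhere in the genome, which can take or lend reads. The share of 50-base stretches of a gene's coding transcripts that also occur in another annotated gene was 68% for Pgk1, 58.4% for Gapdh, 49.5% for Eno1, 41.5% for Pgam1, 23.7% for Pkm, 21% for Ldhb, 18.6% for Gpi1, 10.7% for Taldo1 and 10.4% for Ldha. The levels of these 9 genes are therefore uncertain, while the share was under 10% for the other 28. The symbols Pgm1 and Pgm2 have been exchanged between annotations, so which phosphoglucomutase the row Pgm2 holds is uncertain too.

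The promoters of 5 members that each held a marked motif are shown as examples. They are the 250 bases before a RefSeq transcription start (build GRCm38.p6), 5′ to 3′ on the gene's strand. Capitals in the first 4 mark ACGTG on either strand, the core that HIF-1 binds, and in the fifth TGACNNNGC on either strand, the core of the antioxidant response element bound by NRF2, a regulator of NADPH-producing enzymes. Ldha (chr7:46845554-46845803, plus strand) encodes the main lactate dehydrogenase subunit and Pgk1 (chrX:106186850-106187099, plus strand) phosphoglycerate kinase. Slc16a3 (chr11:120948817-120949066, plus strand) encodes the lactate exporter MCT4, and Slc2a1 (chr4:119108495-119108744, plus strand) the glucose carrier GLUT1. G6pdx (chrX:74428881-74429130, minus strand) encodes glucose 6-phosphate dehydrogenase, the first enzyme of the pentose phosphate pathway.
Ldha: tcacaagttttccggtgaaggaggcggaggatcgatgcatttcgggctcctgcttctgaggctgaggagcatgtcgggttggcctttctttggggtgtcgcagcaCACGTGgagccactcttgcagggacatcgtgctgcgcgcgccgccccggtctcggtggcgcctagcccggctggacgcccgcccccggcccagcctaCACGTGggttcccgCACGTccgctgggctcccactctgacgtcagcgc
Pgk1: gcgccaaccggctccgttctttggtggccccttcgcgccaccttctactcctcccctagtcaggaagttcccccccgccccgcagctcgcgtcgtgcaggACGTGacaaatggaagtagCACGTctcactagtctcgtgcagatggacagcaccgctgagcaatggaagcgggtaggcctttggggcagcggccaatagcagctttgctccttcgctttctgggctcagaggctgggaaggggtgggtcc
Slc16a3: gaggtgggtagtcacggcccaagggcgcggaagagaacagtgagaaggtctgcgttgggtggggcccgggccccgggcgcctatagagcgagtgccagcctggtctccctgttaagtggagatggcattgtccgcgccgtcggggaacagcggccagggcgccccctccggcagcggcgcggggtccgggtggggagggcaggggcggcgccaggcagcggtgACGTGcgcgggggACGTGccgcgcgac
Slc2a1: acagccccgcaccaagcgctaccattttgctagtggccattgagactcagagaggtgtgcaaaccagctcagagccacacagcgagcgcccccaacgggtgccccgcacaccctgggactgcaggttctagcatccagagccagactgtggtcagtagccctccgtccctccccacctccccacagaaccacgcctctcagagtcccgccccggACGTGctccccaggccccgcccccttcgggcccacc
G6pdx: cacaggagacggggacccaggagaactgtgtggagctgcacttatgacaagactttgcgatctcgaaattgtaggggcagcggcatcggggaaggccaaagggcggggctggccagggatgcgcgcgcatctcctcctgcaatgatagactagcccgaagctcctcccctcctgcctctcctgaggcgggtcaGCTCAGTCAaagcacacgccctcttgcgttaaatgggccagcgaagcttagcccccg
Ldha held the core in 3 places, in 2 of them within CACGTG, which is also an E-box, while Pgk1 and Slc16a3 held it in 2 places and Slc2a1 in 1. Over windows from 250 bases before to 50 bases after each start, 36 of the 37 members had an entry, with 52 starts among them, and Slc2a3 had none. ACGTG stood in 25 of the 52 windows (48.1%), against 19.6% of all 32851 windows and 20.9% of those of protein-coding genes. The windows of Tkt and Pdk1, and that of another listed start of Ldha, did not hold ACGTG and are not shown. GGGCGG, the GC box, stood in 67.3% of the members' windows, against 35.7% of all windows and 46.2% of those of protein-coding genes. The other motifs searched were as common in the members as elsewhere or nearly so: CACGTG, which contains ACGTG, in 9.62% against 7.15% of all windows, and TGACNNNGC in 11.5% against 12.4%. A match gives the letters only, not binding.

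Per kilobase of exon, merged over all transcripts of a gene, the same 2 genes led in every group. Taldo1, transaldolase of the pentose phosphate pathway, averaged 1877 normalized counts per kilobase in M-MDSC LD and 1978 in M-MDSC Ctrl, and 8336 in PMN-MDSC LD and 7072 in PMN-MDSC Ctrl. Pkm, pyruvate kinase, was next in each group, with 1382 and 1346 in M-MDSC LD and Ctrl and 4333 and 3309 in PMN-MDSC LD and Ctrl. Pygl, glycogen phosphorylase, ranked next in PMN-MDSC, with 3686 in LD and 2899 in Ctrl, whereas it had 407.7 in M-MDSC LD and 370.2 in M-MDSC Ctrl. At the other end, Slc16a1, Pfkm and Aldoc stayed under 21 per kilobase in all 4 groups. Exon lengths are from the GENCODE annotation of GRCm38, which need not be the one used for counting. Ranks can depend on the length used. Pygl had 6895 merged exon bases but 3291 distinct 50-base stretches in its coding transcripts, against 5001 and 3961 for Pkm. Whether the ranks hold with other lengths was not tested.

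How lymphodepletion left these genes in PMN-MDSC was asked first. Of the 36 genes, 16 rose (44.4%), 2 fell and 18 did not pass (limma, adjusted p under 0.05). Over all 11122 genes tested 7.17% rose and 8.51% fell. The median log2 change of the 36 was 0.38, against -0.05 over all genes. Apart from Ldhb, the log2 changes of the genes that rose lay between 0.40 and 1.15. By step, all 4 tested genes of lower glycolysis rose, as did 3 of 5 of the pentose phosphate pathway, 2 of 3 hexokinases, 2 of 5 glycogen genes and 3 of 6 of lactate and pyruvate handling, but 2 of 9 of upper glycolysis and 0 of 2 glucose carriers.

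The change with the smallest adjusted p was in the pentose phosphate pathway. Tkt, transketolase (chr14:30548359-30574720, GRCm38), which exchanges sugars between this pathway and glycolysis, had normalized counts of 8801, 9495 and 11085 in PMN-MDSC LD, against 5016, 4556 and 4476 in PMN-MDSC Ctrl. The groups did not overlap, and the rise was 2.08-fold on the fitted scale (log2 change 1.06 ± 0.11, limma adjusted p = 8.4e-05). G6pdx had 6684, 6848 and 7727 in PMN-MDSC LD and 4699.6, 3981 and 4049.6 in PMN-MDSC Ctrl, again without overlap (log2 change 0.74 ± 0.10, limma adjusted p = 4.1e-04). Pgd, 6-phosphogluconate dehydrogenase, which makes the second NADPH of the pathway, had 10068, 15449 and 15608 in PMN-MDSC LD and 9763, 8281 and 7770.4 in PMN-MDSC Ctrl. LD replicate 1 lay close to the highest Ctrl library and the other LD libraries well above it (0.65 ± 0.15, limma adjusted p = 0.012). Pgls and Taldo1, the lactonase and transaldolase of the same pathway, did not pass, with log2 changes of 0.34 and 0.24 (limma adjusted p = 0.22 and 0.28).

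All 4 tested genes of lower glycolysis rose. Gapdh, glyceraldehyde 3-phosphate dehydrogenase, had 5755, 6731 and 7084 in PMN-MDSC LD against 4554, 3394 and 2932 in PMN-MDSC Ctrl, and Pgk1 had 1063, 1062 and 1370.0 in PMN-MDSC LD against 819, 614 and 552 in PMN-MDSC Ctrl. In both genes every LD library lay above every Ctrl library (log2 changes 0.87 ± 0.15 and 0.82 ± 0.16, limma adjusted p = 0.0019 and 0.0036). Pgam1, phosphoglycerate mutase, had 473, 537 and 576 in PMN-MDSC LD and 377, 352 and 314 in PMN-MDSC Ctrl (0.60 ± 0.15, limma adjusted p = 0.016). Pkm, which makes pyruvate, had 20116, 20708 and 24185 in PMN-MDSC LD and 19227, 16556 and 13863 in PMN-MDSC Ctrl (0.40 ± 0.12, limma adjusted p = 0.035), and LD replicate 1 was only slightly above Ctrl replicate 1. These 4 are among the 5 genes with the largest share of stretches found elsewhere.

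In upper glycolysis 2 of 9 genes rose. These were Gpi1, glucose 6-phosphate isomerase, with 9159, 10658 and 11406 in PMN-MDSC LD and 7358, 6387 and 6466 in PMN-MDSC Ctrl (0.62 ± 0.12, limma adjusted p = 0.0039), and Aldoa, aldolase A, with 7595, 8347 and 10122 in PMN-MDSC LD and 6991, 5607 and 4335 in PMN-MDSC Ctrl (0.64 ± 0.15, limma adjusted p = 0.012). The committed step did not pass in any isozyme: the log2 changes of the phosphofructokinases were -0.35 for Pfkl, -0.03 for Pfkm and 0.15 for Pfkp. Nor did Pfkfb3 and Pfkfb4, whose products set the level of the activator fructose 2,6-bisphosphate, at -0.24 and -0.05, nor Tpi1 and Aldoc (limma adjusted p of these 7 genes 0.21 to 0.97). Of the hexokinases, Hk1 had 1879, 2040.1 and 2409 in PMN-MDSC LD and 1601, 1552 and 1298 in PMN-MDSC Ctrl (0.51 ± 0.11, limma adjusted p = 0.0095). Hk2 had 3519, 3418 and 4057 in PMN-MDSC LD and 2845, 2644 and 2722 in PMN-MDSC Ctrl (0.42 ± 0.09, limma adjusted p = 0.0068), and both rose without overlap. Hk3, the hexokinase typical of granulocytes and the most abundant of the family there, did not pass (0.15 ± 0.12, limma adjusted p = 0.42).

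Of the 2 glucose carriers, 1 fell. Slc2a1, whose promoter is shown above, had 1212, 1037 and 1162 in PMN-MDSC LD against 1829, 1664 and 1539 in PMN-MDSC Ctrl. All LD libraries lay below all Ctrl libraries, and the gene fell by 0.56 on the log2 scale (SE 0.11, limma adjusted p = 0.0056). Slc2a3, which encodes the high-affinity carrier GLUT3, had 10679.8, 14299.9 and 15714 in PMN-MDSC LD and 10360.2, 10662 and 10382 in PMN-MDSC Ctrl and did not pass (0.36 ± 0.39, limma adjusted p = 0.58).

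At the fate of pyruvate, Ldha had 3584, 3583 and 3619 in PMN-MDSC LD and 2800.2, 2508 and 2042 in PMN-MDSC Ctrl, with the 3 LD libraries nearly equal and above all Ctrl libraries (0.57 ± 0.11, limma adjusted p = 0.0047). The exporter Slc16a3 did not pass (-0.10 ± 0.08, limma adjusted p = 0.46). A pair of pyruvate dehydrogenase kinases, which switch off pyruvate dehydrogenase in the mitochondrion, moved in opposite directions. Pdk3 had 403, 362 and 520.3 in PMN-MDSC LD and 215, 149 and 215 in PMN-MDSC Ctrl and rose 2.21-fold (1.15 ± 0.18, limma adjusted p = 0.0014). Pdk1, a HIF-1 target, had 135, 83.8 and 81.3 in PMN-MDSC LD and 212, 174 and 174 in PMN-MDSC Ctrl and fell by 0.93 on the log2 scale (SE 0.21, limma adjusted p = 0.0088). Ldhb, the heart-type subunit, was sparse, with 66.3, 47.1 and 25.2 in PMN-MDSC LD and 9.18, 32.5 and 12.8 in PMN-MDSC Ctrl. It passed with overlapping groups (1.39 ± 0.44, limma adjusted p = 0.044), and leaving out 1 library at a time lost it 9 times of 12. Those were the fits without PMN-MDSC Ctrl replicate 1 or 3, without PMN-MDSC LD replicate 1 or 2, and without any M-MDSC library other than LD replicate 1 (limma adjusted p 0.056 to 0.145).

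In glycogen turnover 2 of 5 genes rose. Gys1, glycogen synthase, had 1087, 931 and 1003 in PMN-MDSC LD and 614, 577 and 584 in PMN-MDSC Ctrl (0.76 ± 0.19, limma adjusted p = 0.014). Ugp2, which makes the UDP-glucose that Gys1 uses, had 1674, 1822 and 1830.0 in PMN-MDSC LD and 1354, 1273 and 1050.3 in PMN-MDSC Ctrl (0.54 ± 0.12, limma adjusted p = 0.0088). Pygl and Gbe1, which release glucose from glycogen and branch it, were higher in every LD library than in any Ctrl library but did not pass (log2 changes 0.34 and 0.44, limma adjusted p = 0.069 and 0.097), and Pgm2 had 0.07. Neither Hif1a (-0.11 ± 0.11) nor Vegfa, the vessel growth factor that HIF-1 induces (-0.50 ± 0.56), passed (limma adjusted p = 0.57 and 0.59).

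**Figure D1:**
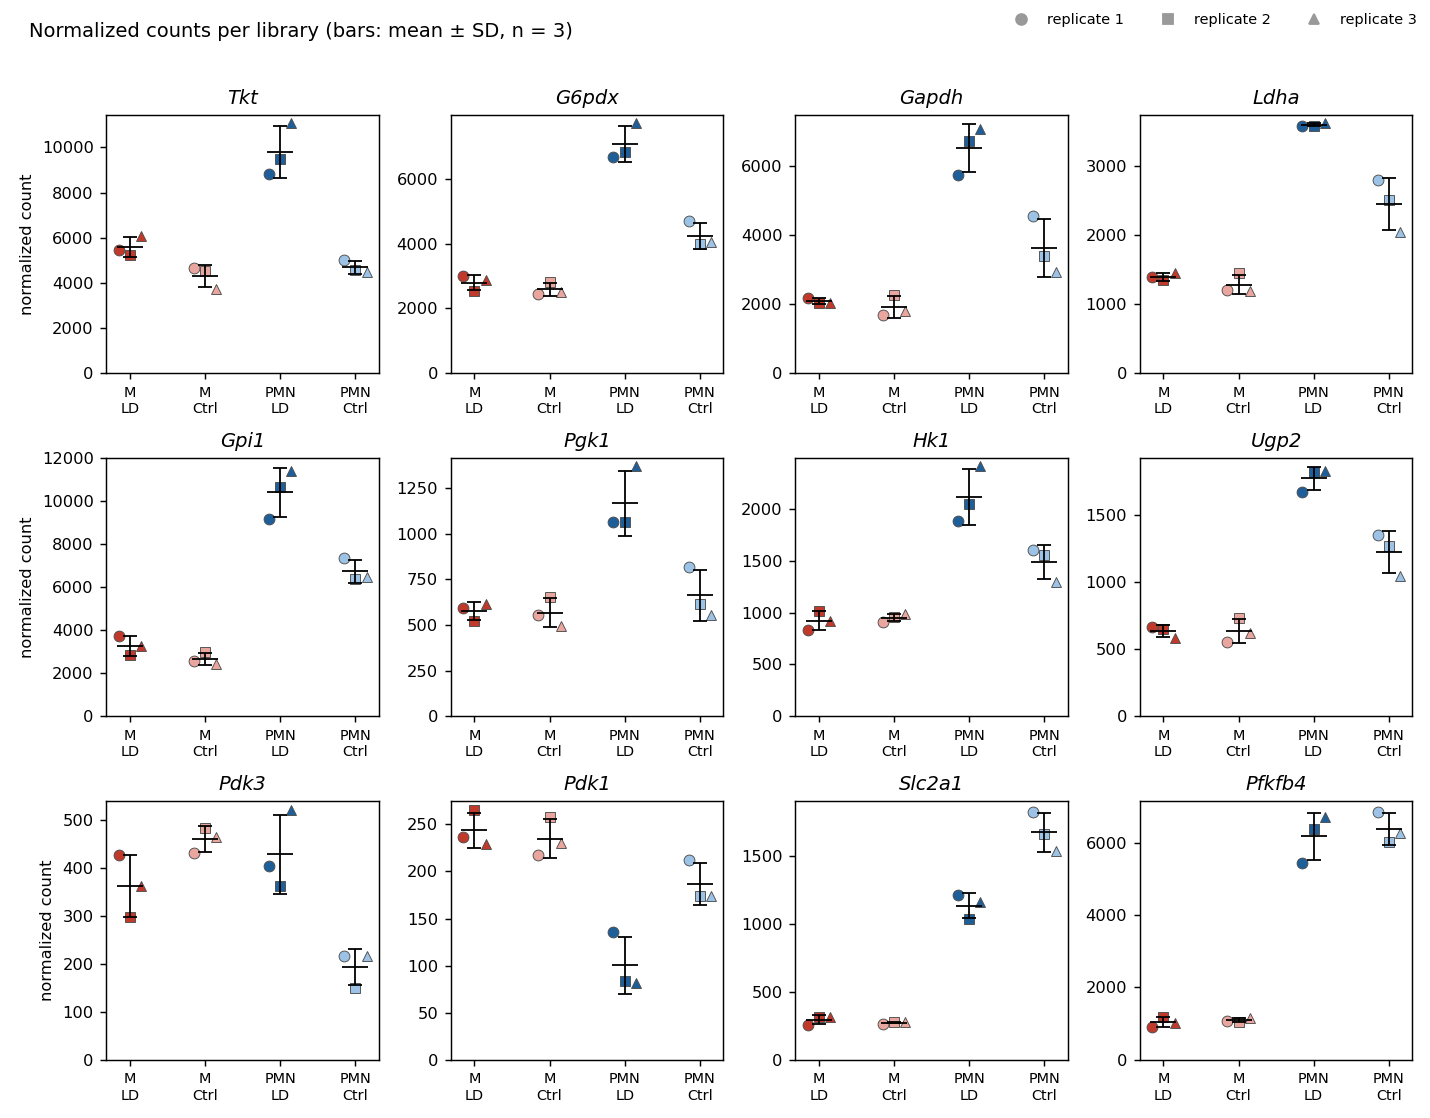
Normalized counts (linear axis from 0) of 12 genes in each library of M-MDSC LD, M-MDSC Ctrl, PMN-MDSC LD and PMN-MDSC Ctrl, with symbols for replicates 1 to 3 and black bars for the mean ± SD. Tkt lies between 8801 and 11085 in PMN-MDSC LD and between 4476 and 5016 in PMN-MDSC Ctrl, Slc2a1 and Pdk1 are lower in all PMN-MDSC LD libraries than in PMN-MDSC Ctrl, and Pfkfb4 overlaps between LD and Ctrl in both populations.

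The libraries of PMN-MDSC were not interchangeable for these genes. Of the 16 genes that rose, LD replicate 3 was the highest of its group in 14 and LD replicate 1 the lowest in 10, while Ctrl replicate 1 was the highest of its group in 14 and Ctrl replicate 3 the lowest in 10. Without PMN-MDSC Ctrl replicate 3, 10 genes rose and Aldoa, Pgam1, Pgd, Gys1, Pkm and Ldhb no longer passed (limma adjusted p 0.051 for Gys1 to 0.16 for Pkm). Without PMN-MDSC LD replicate 3, 12 rose and Aldoa, Pgam1, Pgd and Pkm were lost (0.053 to 0.12). Pkm was also lost without M-MDSC Ctrl replicate 1, PMN-MDSC Ctrl replicate 2 or PMN-MDSC LD replicate 2 (0.051, 0.084 and 0.056). The other 12 calls, Slc2a1 and Pdk1 among them, held whichever library was left out and in every other setting tried, and without both LD libraries numbered 1 19 genes rose and 3 fell, where 10.4% of all genes then rose and 11.6% fell. Markers of neutrophil granules were also higher in LD, with sums of 352007, 281325 and 369370 normalized counts in PMN-MDSC LD and 118571, 127045 and 131968 in PMN-MDSC Ctrl. By limma 5 of these 6 markers rose. Within the groups the order differed in part: the granule sum was lowest in Ctrl replicate 1, where 14 of the 16 genes were highest. In LD it was highest in replicate 3, as were 14 of the 16 genes, but lowest in replicate 2. Mature neutrophil markers summed to 533483, 578996 and 607224 in PMN-MDSC LD and 427054, 392005 and 407674 in PMN-MDSC Ctrl, with 1 of 8 markers called higher and 2 lower. Cell division markers summed to 11167, 2192 and 3497 in PMN-MDSC LD and 2945, 3846 and 3299 in PMN-MDSC Ctrl and were highest in LD replicate 1, where 10 of the 16 genes had their lowest LD value. Progenitor markers summed to 1075, 325 and 581 in PMN-MDSC LD and 229, 225 and 287 in PMN-MDSC Ctrl, and 3 of 8 rose (Mpo, Elane and Prtn3). Dendritic markers summed to 2656, 3883 and 3563 in PMN-MDSC LD and 5047, 5467 and 4902 in PMN-MDSC Ctrl, and 1 of 3 tested, Itgax, fell. Of 8 monocyte markers 1 rose and 2 fell. The part of these markers in the changes was not tested.

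In M-MDSC, 5 of the 36 genes rose with lymphodepletion (13.9%), 0 fell and 31 did not pass, where over all genes tested 2.54% rose and 0.468% fell. By DESeq2 8 rose and 0 fell, by edgeR 5 and 0, and at an unadjusted limma p under 0.05 10 were higher and 0 lower. The median log2 change of the 36 was 0.12, against -0.04 over all genes. The 5 were Vegfa, the carriers Slc2a3 and Slc16a3, Hk3 and Gys1, and 0 of the 13 tested genes from Gpi1 to Pkm and 0 of the 5 pentose phosphate genes passed.

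Vegfa (chr17:46016993-46032369, GRCm38) had 183, 27.2 and 74.9 normalized counts in M-MDSC LD, against 7.13, 2.87 and 15.7 in M-MDSC Ctrl. The LD libraries spread widely, yet the lowest was above the highest Ctrl library, and the lowest Ctrl library held 3 reads (log2 change 3.18 ± 0.56, limma adjusted p = 0.0056). The change was 2.52 without LD replicate 1 (adjusted p = 0.017) and 3.87 without LD replicate 2 (adjusted p = 3.8e-04), and 2.39 with a pseudocount of 8 in place of 1. Slc2a3 had 254, 53.5 and 112 in M-MDSC LD and 25.3, 50.7 and 30.3 in M-MDSC Ctrl, so that LD replicate 2 and Ctrl replicate 2 nearly met (1.74 ± 0.39, limma adjusted p = 0.026). It was lost without LD replicate 1 (change 1.17, adjusted p = 0.053) or 3 (0.075) and without Ctrl replicate 1 (0.12) or 3 (0.094). The other carrier gene, Slc2a1, had 258, 313 and 315 in M-MDSC LD and 267, 277 and 278 in M-MDSC Ctrl and did not pass (0.10 ± 0.11).

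Slc16a3, the lactate exporter, was the only one of the 5 to pass in every setting tried. It had 1039, 1093 and 1136 in M-MDSC LD and 681, 743 and 689 in M-MDSC Ctrl. It rose 1.55-fold (0.63 ± 0.08, limma adjusted p = 7.5e-04). Gys1 had 302, 163 and 267 in M-MDSC LD and 109, 127 and 128 in M-MDSC Ctrl (0.96 ± 0.19, limma adjusted p = 0.01), and narrowly failed without Ctrl replicate 1 or LD replicate 3 (adjusted p 0.054 each). Hk3 had 1383, 1106 and 1274 in M-MDSC LD and 895, 871 and 891 in M-MDSC Ctrl (0.50 ± 0.12, limma adjusted p = 0.031). It failed without any 1 of the 3 Ctrl libraries (adjusted p 0.096 to 0.098), without LD replicate 1 (0.12) or 3 (0.1), or without PMN-MDSC Ctrl replicate 2 (0.052), which enters through the shared spread. In the fit of the M-MDSC libraries alone, 2 of the 36 genes rose, and Vegfa, Gys1 and Slc2a3 no longer passed (limma adjusted p = 0.057, 0.07 and 0.13). Without both LD libraries numbered 1, 5 rose and 0 fell, where 3.21% of all genes rose and 0.898% fell.

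Most other enzymes stayed close to their Ctrl level. Pgam1 and Tkt came nearest to the threshold, with 294, 338 and 254 in M-MDSC LD against 214, 178 and 223 in M-MDSC Ctrl for Pgam1 and 5456, 5221 and 6074 in M-MDSC LD against 4646, 4535 and 3726 in M-MDSC Ctrl for Tkt (limma adjusted p = 0.081 and 0.082). Aldoc, a brain-type aldolase, had 14.5, 38.2 and 27.6 in M-MDSC LD and 4.54, 9.57 and 7.29 in M-MDSC Ctrl (1.72 ± 0.59, limma adjusted p = 0.16). Gapdh, Pgk1, Pkm, Ldha, G6pdx, Pgd, Pygl and Ugp2 had log2 changes of at most 0.14, and Hif1a one of 0.07, with adjusted p of 0.76 or more.

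Markers of other cells moved with the M-MDSC changes. The mature neutrophil sum was highest in LD replicate 1, then 3, then 2, and Vegfa, Slc2a3, Gys1 and Hk3 had the same order, whereas Slc16a3 was lowest in LD replicate 1. All 5 genes were at higher levels in PMN-MDSC than in M-MDSC, as were 28 of the 36 tested members in Ctrl mice and 28 in LD mice. The granule, progenitor and cell division sums had the order of the neutrophil sum too. S100a9, a neutrophil marker, had 23934, 4031 and 8329 in M-MDSC LD and 698, 1021 and 987 in M-MDSC Ctrl. All 8 markers of the list were detected in all M-MDSC libraries. By limma 3 of them rose and 5 did not pass, and 6 had positive and 2 negative log2 changes. Neutrophil granule markers summed to 52711, 12121 and 25164 in M-MDSC LD and 3573, 5102 and 4438 in M-MDSC Ctrl, and of these 6 markers 4 rose and 1 fell by limma. Progenitor markers, with Mpo among them, summed to 7863, 1704 and 2220 in M-MDSC LD and 267, 261 and 322 in M-MDSC Ctrl. Cell division markers summed to 13996, 4160 and 5721 in M-MDSC LD and 1607, 1266 and 1305 in M-MDSC Ctrl. Dendritic markers summed to 1470, 1487 and 1368 in M-MDSC LD and 888, 899 and 1110 in M-MDSC Ctrl. The sums were nearly level over the LD libraries, as Slc16a3 was. Of 3 dendritic markers tested 1, Itgax, rose, and 2 had negative log2 changes (median of the 3 -0.22). Of 6 macrophage markers 3 rose (C1qa, C1qc and Vcam1), while their sum was 1971, 2017 and 1699 in M-MDSC LD and 2184, 2190.3 and 1885 in M-MDSC Ctrl. Monocyte markers summed to 65588, 85650 and 80380 in M-MDSC LD and 94705, 113436 and 101962 in M-MDSC Ctrl. By limma 0 of these 8 markers passed, and 4 had positive and 4 negative log2 changes. The part of these cells or states in the changes was not tested.

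**Figure D2:**
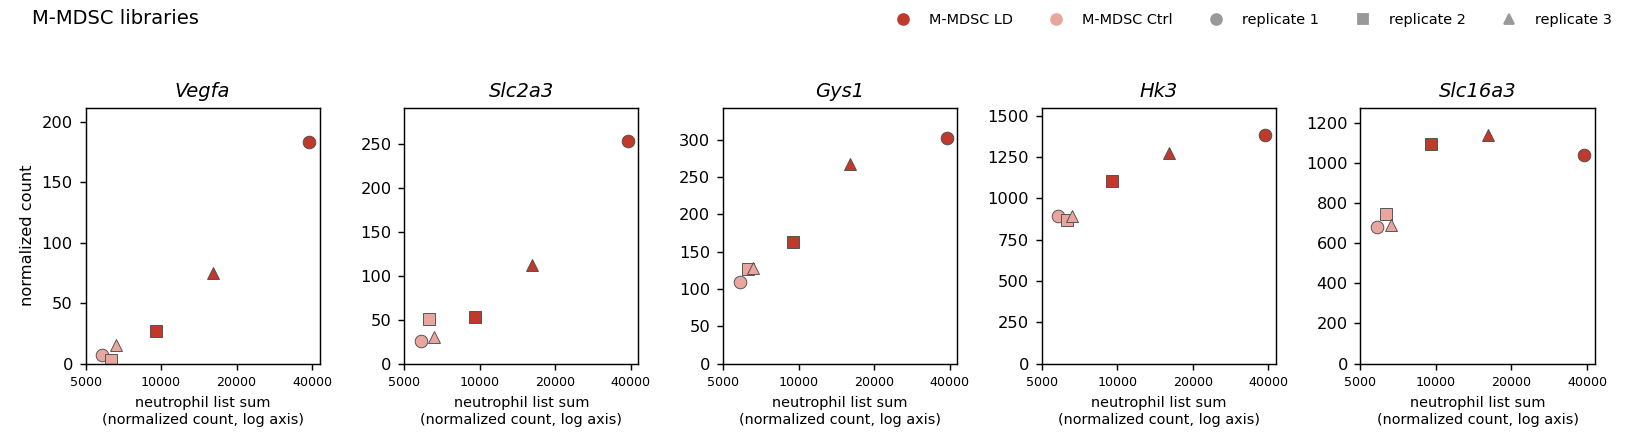
Normalized counts of the 5 genes that rose in M-MDSC LD (linear axis from 0) against the summed normalized count of 8 mature neutrophil markers in the same library (log axis), for 3 LD and 3 Ctrl libraries. Vegfa, Slc2a3, Gys1 and Hk3 are highest where the neutrophil sum is highest, at 39004 in LD replicate 1, while Slc16a3 is at 1039 to 1136 in all 3 LD libraries.

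**Figure D3:**
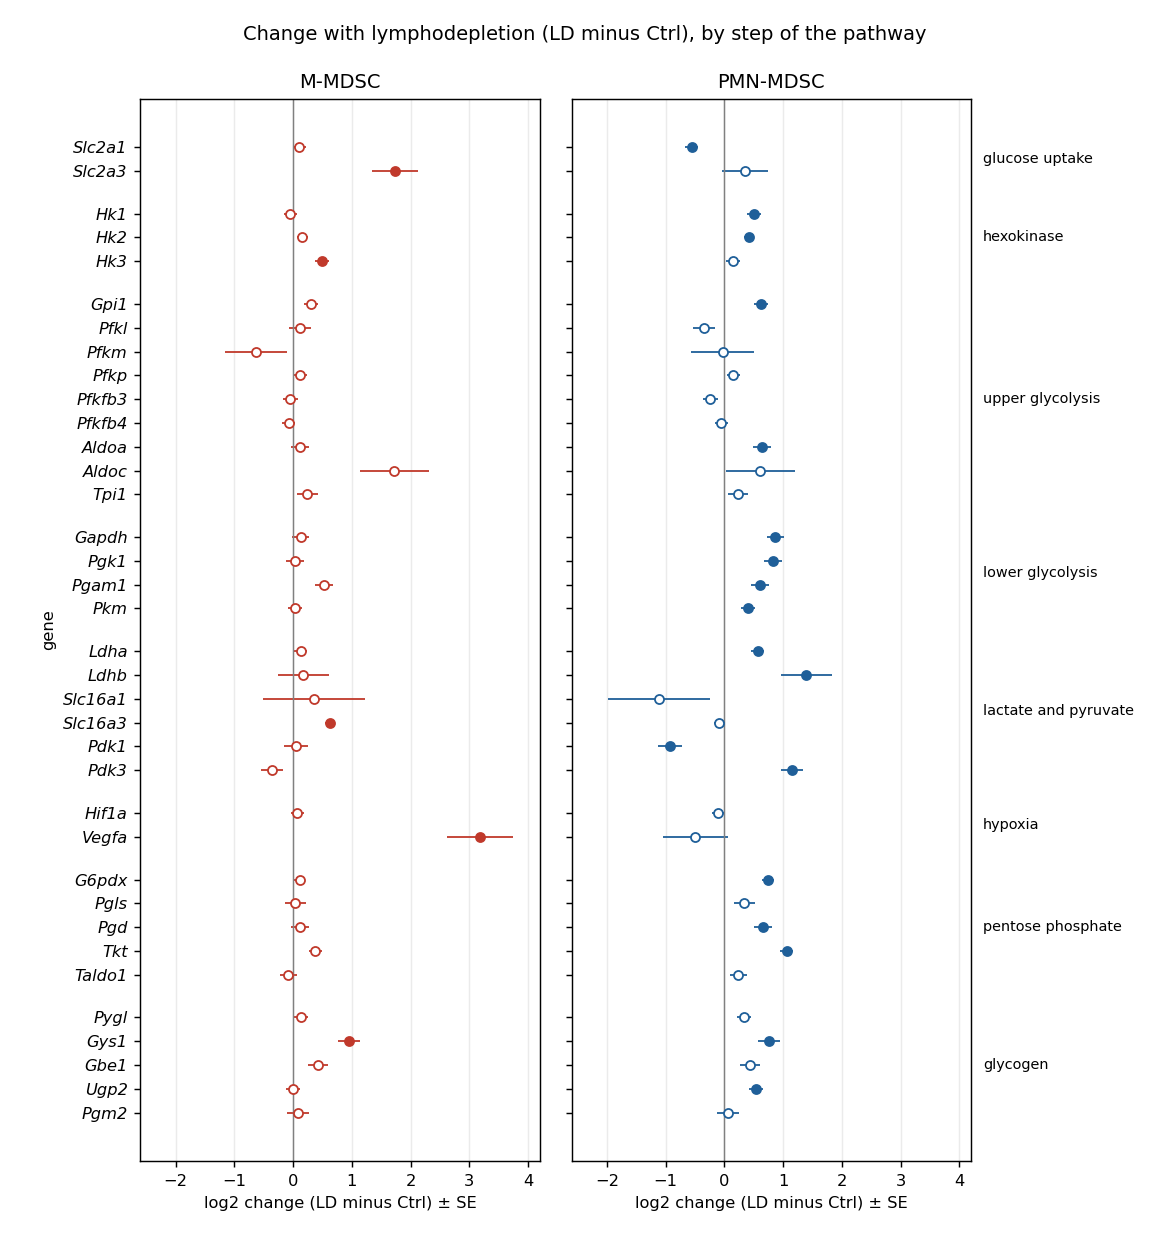
Log2 change of each tested gene (LD minus Ctrl, ± SE) in M-MDSC on the left and PMN-MDSC on the right, by step of the pathway, with filled points for genes past the threshold. Filled points cover lower glycolysis in PMN-MDSC but not in M-MDSC, where Vegfa (3.18) and Slc2a3 (1.74) are the largest.

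Whether lymphodepletion acted differently on the populations was tested as the difference of the log2 changes (M-MDSC minus PMN-MDSC). Of the 36 genes 3 were higher and 3 lower, where 1.18% and 1.07% of all genes were. Slc16a3 changed by 0.63 in M-MDSC and -0.10 in PMN-MDSC, a difference of 0.72 ± 0.12 (limma adjusted p = 0.008). Pdk3 changed by -0.36 in M-MDSC, with 427, 297 and 362 in LD against 431, 483 and 464 in Ctrl, and by 1.15 in PMN-MDSC, a difference of -1.50 ± 0.26 (limma adjusted p = 0.0095). These 2 passed in every setting tried. Vegfa (difference 3.68 ± 0.79, limma adjusted p = 0.029), Slc2a1 (0.66 ± 0.16, 0.047), G6pdx (-0.63 ± 0.14, 0.034) and Tkt (-0.68 ± 0.16, 0.038) lay near the threshold. When each of the 12 libraries was left out in turn, these calls were lost 8, 10, 9 and 10 times, with adjusted p up to 0.074, 0.11, 0.095 and 0.096. Vegfa's difference was 3.01 without M-MDSC LD replicate 1, 4.37 without M-MDSC LD replicate 2 and 2.88 with a pseudocount of 8. The exceptions were the fits without M-MDSC Ctrl replicate 3, LD replicates 1 and 2 and PMN-MDSC LD replicate 1 for Vegfa, and without M-MDSC LD replicate 1 and PMN-MDSC LD replicate 1 for Slc2a1. For G6pdx they were the fits without M-MDSC LD replicate 1, PMN-MDSC Ctrl replicate 1 and PMN-MDSC LD replicate 1, and for Tkt those without M-MDSC Ctrl replicate 3 and PMN-MDSC LD replicate 1. The lower glycolysis genes had differences of -0.74 (Gapdh), -0.80 (Pgk1), -0.36 (Pkm) and -0.08 (Pgam1) and missed the threshold (limma adjusted p = 0.079, 0.073, 0.27 and 0.89). Pgk1 passed in 5 alternatives and Gapdh in 4, both by DESeq2 and without PMN-MDSC Ctrl replicate 1, PMN-MDSC LD replicate 1 or both LD libraries numbered 1, and Pgk1 also with a replicate block by treatment and number. Pkm and Pgam1 passed in none. Without both LD libraries numbered 1, 4 of the 36 genes were higher and 7 lower, where 3.79% and 3.1% of all genes were.

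Far more genes passed between the populations than with treatment, among the 36 as among all genes. M-MDSC had higher levels of 4 of the 36 genes (11.1%) and lower levels of 23 (63.9%) in Ctrl mice. In LD mice these counts were 5 (13.9%) and 25 (69.4%). Of all genes 38.8% were higher and 36.8% lower in Ctrl mice, and 38.8% and 36.1% in LD mice. The median log2 difference of the 36 genes was -0.92 in Ctrl and -1.27 in LD mice, against 0.06 and 0.10 over all genes. These differences rest on the scaling: the authors' size factors were 1.02 to 1.78 for M-MDSC libraries and 0.626 to 1.14 for PMN-MDSC libraries at similar numbers of reads, and scaling by total reads, chosen after seeing the data, shifted the median of all genes by 0.62 in Ctrl and 0.73 in LD mice. The counts were then 10 higher and 17 lower in Ctrl mice, where 54.7% of all genes were higher and 23.2% lower, and 11 higher and 21 lower in LD mice, against 58.7% and 21% of all genes. Without both LD libraries numbered 1 they were 4 and 24 in Ctrl mice and 5 and 25 in LD mice.

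Slc2a3 averaged 35.4 ± 13.5 in M-MDSC Ctrl and 10468 ± 169 in PMN-MDSC Ctrl (mean ± SD of normalized counts, n = 3 in this and the next paragraph), a log2 difference of -8.23 ± 0.39 (limma adjusted p = 1.2e-10). Slc2a1 averaged 274 ± 6.13 in M-MDSC Ctrl and 1677 ± 146 in PMN-MDSC Ctrl (-2.61 ± 0.11, limma adjusted p = 4.9e-11). Slc16a3 averaged 704 ± 33.4 in M-MDSC Ctrl and 4982 ± 122 in PMN-MDSC Ctrl (-2.82 ± 0.08, limma adjusted p = 1.2e-12). Vegfa was nearly absent from M-MDSC Ctrl, at 8.57 ± 6.54 normalized counts, against 797 ± 107 in PMN-MDSC Ctrl (-6.62 ± 0.56, limma adjusted p = 6.1e-08, or -5.67 with a pseudocount of 8). In LD mice the difference in Vegfa was -2.94 ± 0.56, and it was -3.60 without M-MDSC LD replicate 1 and -2.25 without M-MDSC LD replicate 2.

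Of the glycogen genes, Pygl averaged 2553 ± 298 in M-MDSC Ctrl and 19985 ± 1179 in PMN-MDSC Ctrl (-2.97 ± 0.12, limma adjusted p = 2.4e-11), and Gys1 and Gbe1 had differences of -2.28 ± 0.19 and -2.23 ± 0.17. Ugp2 had -0.94, and Pgm2 did not pass (-0.14). In the pentose phosphate pathway Pgd (-1.74), Taldo1 (-1.83) and G6pdx (-0.71) were lower in M-MDSC Ctrl, Tkt did not pass (-0.13) and Pgls was higher (0.997 ± 0.18, limma adjusted p = 1.6e-04). In the glycolytic chain Hk3 (-3.16), Pfkfb4 (-2.55), Pfkfb3 (-1.36), Gpi1 (-1.34), Pkm (-1.29), Aldoa (-1.05), Ldha (-0.93), Gapdh (-0.91), Pgam1 (-0.76), Hk2 (-0.75) and Hk1 (-0.64) were lower in M-MDSC Ctrl, as was Hif1a (-0.65). Pfkl, Pfkp, Tpi1, Pgk1 and Aldoc did not pass. By total-read scaling Hk1, Hk2, Gapdh, Pgam1, Hif1a and G6pdx no longer passed in Ctrl mice, with differences of -0.01, -0.12, -0.28, -0.14, -0.02 and -0.08, and Pdk1, Tpi1, Pfkp, Tkt, Pgm2 and Pgk1 were higher in M-MDSC Ctrl, at 0.96, 0.72, 0.72, 0.50, 0.48 and 0.42.

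The genes that M-MDSC held more of were few. Pfkm, muscle-type phosphofructokinase, averaged 70.0 ± 6.98 in M-MDSC Ctrl and 6.86 ± 4.06 in PMN-MDSC Ctrl (mean ± SD, n = 3), a log2 difference of 3.31 ± 0.53 (limma adjusted p = 5.1e-05), or 2.42 with a pseudocount of 8 in place of 1. Ldhb averaged 149 ± 19.2 in M-MDSC Ctrl and 18.2 ± 12.6 in PMN-MDSC Ctrl (3.15 ± 0.44, limma adjusted p = 1.2e-05). Pdk3 averaged 459.7 ± 26.3 in M-MDSC Ctrl and 193 ± 38.1 in PMN-MDSC Ctrl (1.26 ± 0.18, limma adjusted p = 2.1e-05), whereas in LD mice it did not pass (-0.24 ± 0.18, limma adjusted p = 0.25). Pdk1 passed in LD and not in Ctrl mice, at 1.31 ± 0.21 (limma adjusted p = 4.1e-05) against 0.33 ± 0.21 in Ctrl mice (0.15), and the difference between these values did not pass (adjusted p = 0.091). Slc16a1, which encodes MCT1, was sparse, with 60.1, 17 and 33.5 in M-MDSC LD and 12.2, 0 and 16.8 in PMN-MDSC LD. It passed in LD mice (2.44 ± 0.87, limma adjusted p = 0.02) but not without M-MDSC LD replicate 1 (2.01, adjusted p = 0.08) or PMN-MDSC LD replicate 2 (1.13, 0.088), and the difference was 3.21 without PMN-MDSC LD replicate 3 and 1.38 with a pseudocount of 8. In the fit of the LD libraries alone it did not pass (0.07).

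In LD mice 25 genes were lower in M-MDSC, Tkt and Pgk1 among them, which did not pass in Ctrl mice. Tkt had a log2 difference of -0.81 ± 0.11 and Pgk1 one of -1.01 ± 0.16 (limma adjusted p = 1.0e-05 and 3.5e-05), and by total-read scaling these and Pgam1 no longer passed (-0.07, -0.27 and -0.11). That scaling also put Tpi1, Pfkl, Pfkp, Pgm2, Pdk3 and Hif1a higher in M-MDSC LD, at 0.84, 0.80, 0.79, 0.60, 0.49 and 0.26. The most negative differences in LD mice were those of Slc2a3 (-6.85 ± 0.39), Pygl (-3.17 ± 0.12) and Vegfa. Without both LD libraries numbered 1 that of Slc2a3 was -7.58. Pfkm and Ldhb were higher in M-MDSC LD too (2.70 ± 0.53 and 1.93 ± 0.44), Pfkm by 1.88 with a pseudocount of 8.

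**Figure D4:**
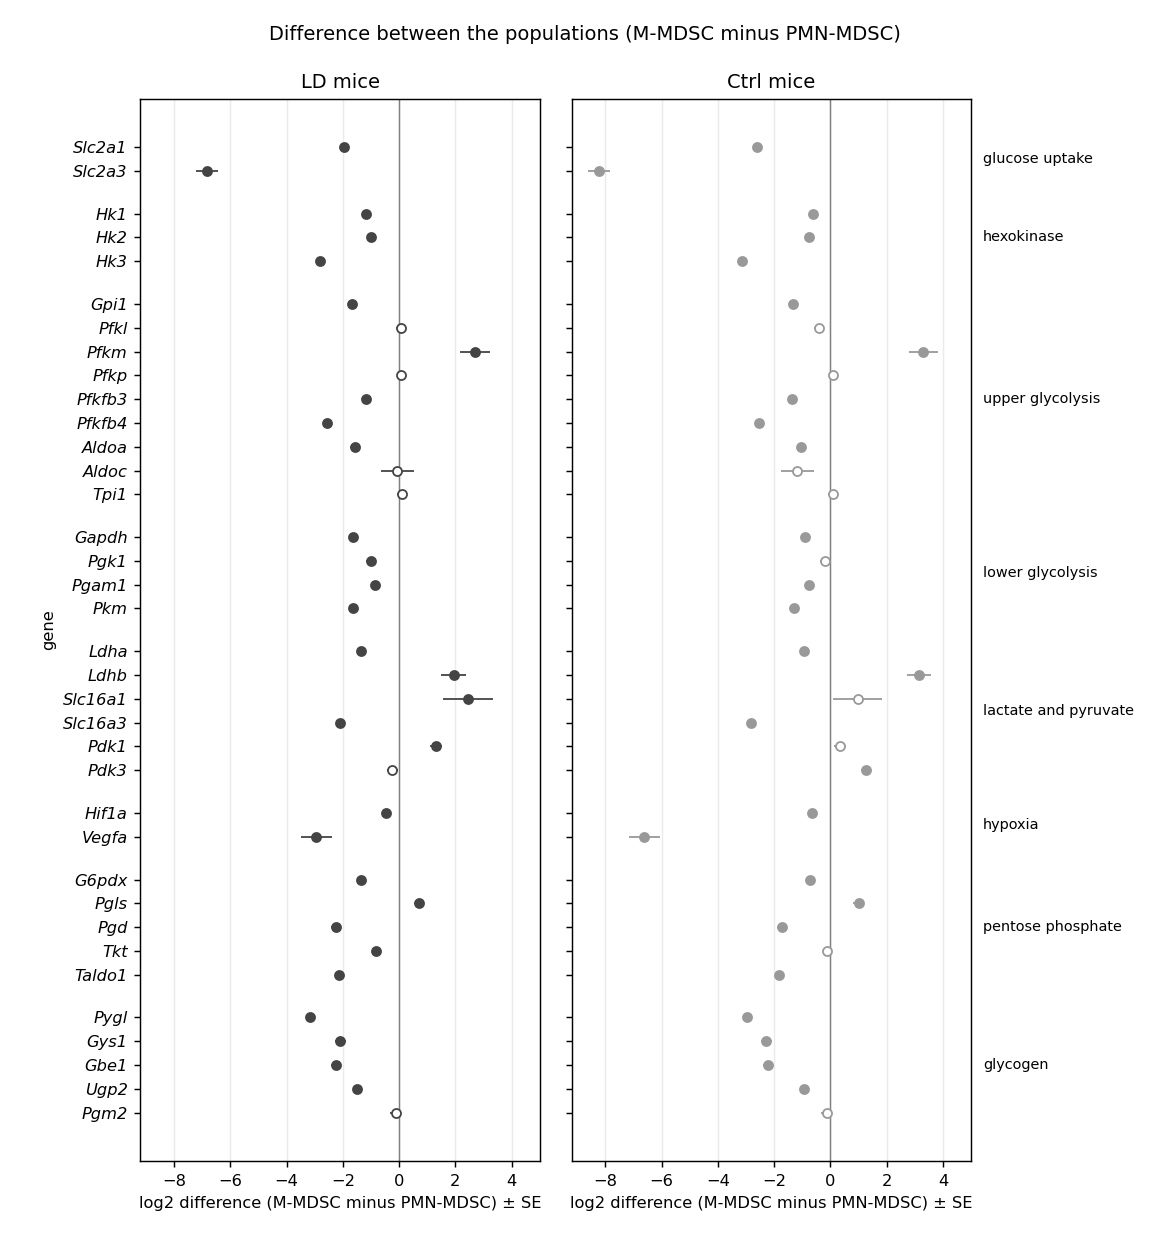
Log2 difference between the populations (M-MDSC minus PMN-MDSC, ± SE) for each tested gene in LD mice on the left and Ctrl mice on the right, with filled points for genes past the threshold. Most points lie left of 0, from -8.23 for Slc2a3 in Ctrl mice, and Pfkm and Ldhb lie right of 0 in both.

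The isozymes of each step were weighed against each other per kilobase of exon within a library, which does not depend on the scaling. Of the 2 glucose carriers, Slc2a3 made up 18.2% ± 12.7 in M-MDSC LD and 5.85% ± 2.02 in M-MDSC Ctrl, against 84.9% ± 3.38 in PMN-MDSC LD and 75.2% ± 1.69 in PMN-MDSC Ctrl (mean ± SD, n = 3). In M-MDSC LD its share was 32.2%, 7.63% and 14.7% in replicates 1, 2 and 3, so that 1 library lay within the Ctrl range. Of the 3 hexokinases, Hk3 made up 45.1% ± 3.37 in M-MDSC LD and 38.5% ± 1.25 in M-MDSC Ctrl, and 73.5% ± 2.46 in PMN-MDSC LD and 77.3% ± 1.5 in PMN-MDSC Ctrl. Pfkm made up 10.3% of the phosphofructokinases in M-MDSC LD and 16.2% in M-MDSC Ctrl, and 1.77% and 1.63% in PMN-MDSC LD and Ctrl, where Pfkl and Pfkp shared the rest. Ldhb made up 20.3% ± 3.48 of lactate dehydrogenase RNA in M-MDSC LD and 19.6% ± 0.643 in M-MDSC Ctrl, and 2.63% ± 1.15 and 1.55% ± 1.01 in PMN-MDSC LD and Ctrl.

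The balance of the kinase pair differed between LD and Ctrl in PMN-MDSC. Pdk1 made up 7.31% ± 2.53 of the Pdk1 and Pdk3 RNA in PMN-MDSC LD and 24.4% ± 3.36 in PMN-MDSC Ctrl, and the 3 libraries of each group did not overlap. In M-MDSC it made up 18.5% ± 3.79 in LD and 14.4% ± 0.473 in Ctrl, again without overlap but in the opposite direction. Pfkfb4 made up 86% of the Pfkfb3 and Pfkfb4 RNA in PMN-MDSC LD and 84.3% in PMN-MDSC Ctrl, and 69.7% and 70.2% in M-MDSC LD and Ctrl. These shares are descriptions with no test, and they rest on one set of exon lengths.

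**Figure D5:**
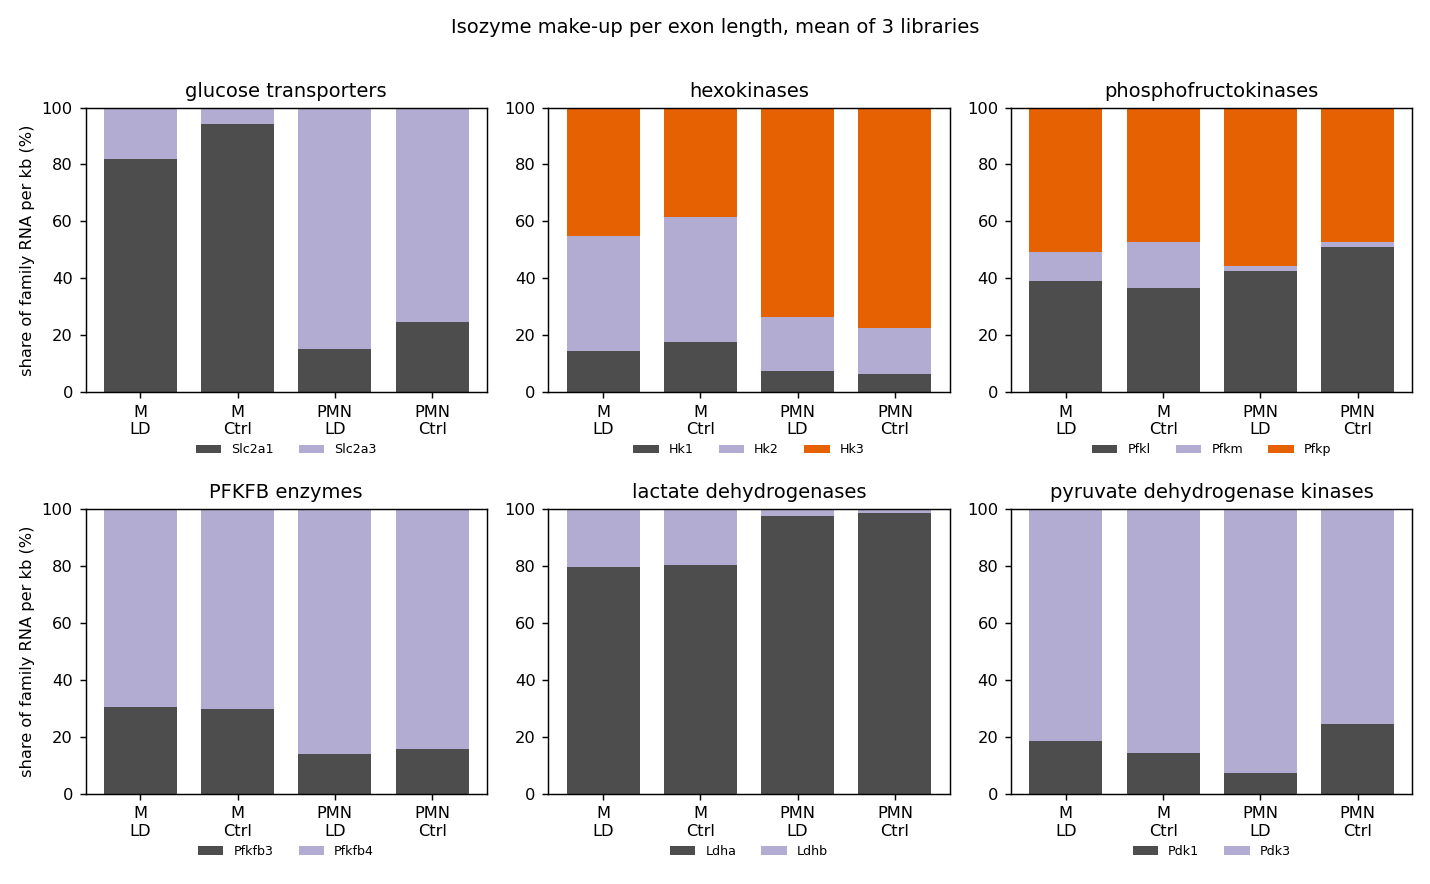
Share of each isozyme in the summed RNA per kilobase of its family (%, mean of 3 libraries, stacked to 100) in M-MDSC LD, M-MDSC Ctrl, PMN-MDSC LD and PMN-MDSC Ctrl. Slc2a3 and Hk3 fill most of the PMN-MDSC bars, at 84.9% and 73.5% in LD, Ldhb is visible mainly in M-MDSC, and Pdk1 shrinks to 7.31% in PMN-MDSC LD against 24.4% in PMN-MDSC Ctrl.

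Another 90 genes of the same pathways and the response to low oxygen were listed by name, with earlier results of these data known. Of these 89 had a row and 65 were tested. In M-MDSC 2 rose with lymphodepletion (3.08%, near the 2.54% of all genes) and 0 fell by limma. By edgeR these counts were 2 and 0, by DESeq2 3 and 0, and at an unadjusted limma p under 0.05 6 and 4. Adpgk, an ADP-dependent glucokinase, had 2052, 641 and 1005 in M-MDSC LD and 371, 400.0 and 413 in M-MDSC Ctrl (1.47 ± 0.28, limma adjusted p = 0.0095), in the order of the neutrophil marker sum. Eno3, the muscle-type enolase, had 1015, 632 and 636 in M-MDSC LD and 341, 295 and 393 in M-MDSC Ctrl (1.12 ± 0.22, limma adjusted p = 0.01, and 0.051 without Ctrl replicate 2). In PMN-MDSC 4 rose (6.15%) and 5 fell (7.69%), near the 7.17% and 8.51% of all genes. Adpgk had 11347, 12441 and 13433 in PMN-MDSC LD and 3919, 4346 and 5409.6 in PMN-MDSC Ctrl (1.45 ± 0.28, limma adjusted p = 0.0041). Gyg, glycogenin, the primer of glycogen, rose (0.93 ± 0.11, limma adjusted p = 1.8e-04), as did Mpc2, a subunit of the mitochondrial pyruvate carrier (0.96 ± 0.15).

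The 5 that fell in PMN-MDSC were Eno3 (-1.17 ± 0.22, limma adjusted p = 0.0032), Pfkfb2, another maker of fructose 2,6-bisphosphate (-0.75 ± 0.15), Kdm3a, a histone demethylase that HIF-1 induces (-0.50 ± 0.10), Pgm3 (-1.07 ± 0.29) and Slc2a6, a carrier of the GLUT family (-0.42 ± 0.10). Pgm3 was lost without PMN-MDSC Ctrl replicate 2 (adjusted p = 0.073) or 3 (0.081), and Slc2a6 without PMN-MDSC Ctrl replicate 3 (0.054). Eno3 moved in opposite directions in the populations, by a difference of 2.30 ± 0.31 (limma adjusted p = 0.0023). Gyg (-0.84 ± 0.16, limma adjusted p = 0.013) and Slc2a6 (0.62 ± 0.14, limma adjusted p = 0.038) also differed. Slc2a6 was lost 10 times of 12 when 1 library was left out (all but those without M-MDSC or PMN-MDSC LD replicate 1, adjusted p up to 0.09). On this difference 2 of the 65 were higher (3.08%) and 1 lower (1.54%), where 1.18% and 1.07% of all genes were. Of the 17 tested genes of the response to low oxygen, limma called 0 in M-MDSC, where 2 were higher and 2 lower at an unadjusted p under 0.05, edgeR called 0 and DESeq2 called 1 higher. Over all genes limma called 2.54% higher and 0.468% lower in M-MDSC. In PMN-MDSC limma called Kdm3a alone, as lower (5.88%), where 7.17% of all genes rose and 8.51% fell. The median log2 change of the 17 there was -0.15, against -0.05 over all genes. Between the populations in Ctrl mice, 33 of the 65 were higher in M-MDSC (50.8%) and 25 lower (38.5%), where 38.8% and 36.8% of all genes were. The largest differences toward PMN-MDSC were in Ppp1r3b (-5.07 ± 0.15) and Ppp1r3d (-4.91 ± 0.20), which tether a phosphatase to glycogen, and Egln3, an oxygen-sensing hydroxylase (-4.75 ± 0.24). Toward M-MDSC they were in Pdp2, a pyruvate dehydrogenase phosphatase (3.64 ± 0.78), G6pc3, a glucose 6-phosphatase (3.56 ± 0.37), and Pgm2l1, which makes glucose 1,6-bisphosphate (2.78 ± 0.38), all 3 at fewer than 250 normalized counts in the M-MDSC Ctrl mean. With a pseudocount of 8 the differences of Pdp2 and G6pc3 were 3.04 and 2.91.

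Among the members' promoters, those of the 16 genes that rose in PMN-MDSC LD held ACGTG in 52.2% of 23 windows and those of the other members in 44.8% of 29. TGACNNNGC stood in 17.4% and 6.9% of these windows, and GGGCGG in 65.2% and 69%. By step, ACGTG stood in at least 1 window of 4 of 5 lower glycolysis genes, all 3 hexokinase genes and 1 of 5 pentose phosphate genes. Counted by gene in the same way, it stood in 61.1% of members, 21.8% of all genes and 23.2% of protein-coding genes. Slc2a1, which fell in PMN-MDSC LD, and Slc16a3, which rose in M-MDSC LD and not detectably in PMN-MDSC LD, both held it, as the sequences above show. These are counts of letters in short windows and were not tested.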

How the data were processed

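Total RNA of sorted cells was sequenced after removal of ribosomal RNA, from 100 ng per sample per the labels' protocols. The authors deposited normalized counts per gene, a scaled signal in which each value is a whole read count divided by a size factor. Dividing each column by the value of 1 read gave whole reads for 100% of values within 0.001. Per the submitters' processing notes, STAR 2.5.3a, HTSeq 0.6.1, DESeq2 and build mm10 were used, and the annotation and strand setting are not given in the sources used here. Unstranded counting would mix a gene with an overlapping antisense gene.

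All 12 columns matched a sample. The main test was a limma fit (version 3.58.1, R 4.3.3) to log2(normalized count + 1), for 11122 genes with a mean of at least 10, with a mean per group, 8 residual degrees of freedom, a mean-variance trend and two-sided p-values adjusted by Benjamini-Hochberg within each comparison (threshold 0.05). Fold changes are on the log2(value + 1) scale and understate the change of low genes. In the 5 comparisons, LD was set against Ctrl in each population, M-MDSC against PMN-MDSC in each treatment, and the LD changes against each other. Alternatives were edgeR 4.0.16 and DESeq2 1.42.0 on the recovered reads, other pseudocounts, minimum means and scalings, and leaving out each library. Total-read scaling and leaving out both LD libraries numbered 1 were chosen after seeing the data. The fit was tested on simulated data.

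The members, the other pathway genes and the marker lists were chosen with earlier results of these data known. All members are named, as are other pathway genes that passed in an LD comparison and the 3 with the largest difference each way between populations in Ctrl mice whose higher group averaged 100 or more. Protein sequences of isozymes were not analysed here. Tables and figures were made with Python 3.11.15, pandas 2.3.3, numpy 2.4.6 and matplotlib 3.10.9, and promoter sequences are from RefSeq (GRCm38.p6). A gene of the wider pathway list enters its counts, and its values are not reported here.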

Additional observations from a re-analysis of the deposited data

Results flagged for a closer look

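The log2 change with lymphodepletion differed between M-MDSC and PMN-MDSC in 9 genes, by the limma test of the difference itself (M-MDSC minus PMN-MDSC). It was larger in M-MDSC for Vegfa (3.68), Slc16a3 (0.72) and Slc2a1 (0.66) of the members and for Eno3 (2.30) and Slc2a6 (0.62) of the other pathway genes. It was smaller in M-MDSC for Pdk3 (-1.50), Tkt (-0.68) and G6pdx (-0.63) of the members and for Gyg (-0.84). Larger and smaller changes were called in 8.33% each of the 36 members tested. Of the 65 other pathway genes the shares were 3.08% and 1.54%, and of all genes 1.18% and 1.07%. Leaving out 1 library never ended the call of Slc16a3, Pdk3, Eno3 or Gyg. It ended that of Slc2a1, Tkt and Slc2a6 in 10 fits each, of G6pdx in 9 and of Vegfa in 8, of 12.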

How the results depend on the processing

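Of 86 calls on members over the 5 comparisons, 61 held in every alternative and 72 whichever library was left out. In M-MDSC, the count of members that rose with LD was 5, against 8 by DESeq2, 2 in a fit of the 2 groups alone and 2 to 6 leaving out 1 library. In PMN-MDSC it was 16, against 10 to 17 leaving out 1 library. The members with a larger LD change in M-MDSC numbered 3, against 1 with no minimum mean and 1 to 4 leaving out 1 library. Those with a smaller change numbered 3, against 1 with no minimum mean, 6 by DESeq2, 7 without both LD libraries numbered 1 and 1 to 7 leaving out 1 library. Members higher in M-MDSC than in PMN-MDSC numbered 4 in Ctrl mice, against 10 by total-read scaling, and 5 in LD mice, against 11 by that scaling and 3 with a minimum mean of 50, under which fewer genes are tested. Of 16 sign changes in members called in at least 1 fit, 6 involved a value past the threshold, all by total-read scaling: Pgk1 0.42, Tkt 0.50 and Pgm2 0.48 in Ctrl mice, and Pdk3 0.49, Hif1a 0.26 and Pgm2 0.60 in LD mice. The other 10 passed in neither fit, reached at most 0.23 in size and concerned Pfkl, Pfkp and Tpi1 between the populations. Where no construction shows it, the cause was not tested. The main test had no block, because no label says that a replicate number marks a shared animal, and it may leave out a pairing. Deviations of samples with the same replicate number correlated at -0.05 to 0.0005 between LD and Ctrl. Between populations they correlated at 0.068 to 0.21 in LD and at -0.04 to 0.13 in Ctrl mice. In LD mice each of the 6 libraries correlated best with its own number, a hint from the data, and whether a number marks a shared mouse is not given in the sources used here. With a replicate block by number, 5 members rose in M-MDSC and 16 in PMN-MDSC, and 2 had a larger and 1 a smaller LD change in M-MDSC. With a replicate block by treatment and number these last counts were 2 and 4, and over all genes 315 and 221, against 131 and 119 with no block. The block by number ended the calls of Slc2a1, G6pdx and Tkt on that difference (adjusted p 0.052 to 0.069). Genes with few reads (Eno1, Slc16a1, Aldoc, Pfkm, and Vegfa and Slc2a3 in M-MDSC) are limited by depth.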
